A study of Mus musculus with 6 samples.

Results

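The genes described here are the Ifit effectors Ifit1, Ifit2, Ifit3, Ifit3b and Ifit1bl1, and the genes of the ISG15 conjugation system, Isg15, Uba7, Ube2l6, Herc6 and Usp18. They were taken by gene name from an expression table of mouse genes, where 10 of 29957 rows carried these names, 1 row each. The samples were bone marrow-derived macrophages (BMDMs), which are macrophages grown from bone marrow cells, of wild-type genotype. They formed 3 control libraries and 3 libraries treated with LPS, a bacterial cell wall product, and with PA-BSA, the fatty acid palmitate carried on albumin. The series' title and design text place the fatty acid as the signal that follows LPS priming in activation of the Nlrp3 inflammasome. The labels give no dose and no time, and do not say what the controls received in place of LPS or PA-BSA. No group received LPS or PA-BSA alone, so the effects of the 2 agents cannot be told apart. The labels also do not say whether the replicates came from separate animals or cultures, and if they did not, the p-values measure only the spread between these libraries.

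Ifit proteins are RNA-binding effectors of the interferon response: Ifit1 binds mRNA whose cap lacks the methyl mark that host mRNA carries, and it and its relatives block translation of such RNA. ISG15 is a ubiquitin-like protein that is attached to other proteins by a chain of enzymes, the activating enzyme (E1) Uba7, the conjugating enzyme (E2) Ube2l6 and, in mouse, the ligase (E3) Herc6, and that is taken off again by the protease Usp18. All are textbook interferon-stimulated genes, switched on through an interferon-stimulated response element (ISRE), and in macrophages LPS reaches that element through Tlr4, Irf3 and secreted interferon beta.

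The values are FPKM, counts of fragments scaled to the length of the transcript and to the mapped fragments of the library, so that levels of different genes can be compared. A gene was tested when it had at least 1 FPKM in at least 3 of the 6 libraries. That left 11364 genes, and all 10 members passed. Ifit1bl1 passed only through the treated group, since only 1 of its 3 controls reached 1 FPKM. The smallest steps of the FPKM values placed the depth of the libraries between 13.9 and 21.2 M fragments, at which 1 fragment in a transcript of 1 kilobase is worth between 0.0472 and 0.0719 FPKM. Of 7 macrophage markers, all were tested: Adgre1, the F4/80 antigen, was 1400 ± 134 FPKM in controls and 1417 ± 189 in treated cells (SD, n = 3 each), 5 markers fell and 1 rose. The number that fell was 3 when control 1, control 2 or LPS+PA 2 was left out. In the same test, described below, 32.9% of all tested genes fell and 22.2% rose. Summed markers of other cells were low, except the stromal sum, which moved down although 1 of its markers, Dcn, rose from 4.91 to 23.3 FPKM. The low plasmacytoid dendritic cell sum was higher in every treated library than in any control, although 1 of its markers, Pacsin1, went down from 0.0962 to 0.00228 FPKM. The neutrophil sum varied among controls, with Ngp at 5.92, 6.03 and 0 FPKM in controls 1 to 3. The 4 plasmacytoid dendritic cell markers found in the table summed to between 0.393 and 0.658 FPKM in controls and between 0.703 and 0.985 in treated libraries, the 5 neutrophil markers to between 0.288 and 8.77 and between 0.316 and 1.63, the 4 B and T cell markers to at most 0.0987 and at most 0.154, and the 5 stromal markers to between 81.6 and 162 and between 32.8 and 40.6. The B cell marker Ms4a1 and the T cell marker Cd3g were listed at 0 in every control, and the neutrophil marker Ly6g in every treated library. Further markers of these cells were not analysed here, and the part of these cells in the results below was not tested. Control 3 and LPS+PA 1 stood apart from their group mates: across genes, which are not independent replicates, the deviation from the group mean went down with the GC content of the transcripts in these 2 libraries (Spearman -0.68 and -0.61) and up in the other 4 (between 0.39 and 0.58). In bulk RNA, fewer cells of a type and less RNA per cell cannot be told apart.

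Promoter sequences are shown because the members are known as targets of the ISRE, and because the members' windows differ in how many copies of its core they hold. RefSeq promoter windows, which run from 250 bases before to 50 bases after a start site, were found for 9 of the 10 members, 11 windows in all. They were searched on both strands for the ISRE core GAAANNGAAA, in which N is any base. Of all 32851 promoter windows of the same length, 3.44% hold at least 1 match and 0.225% hold 2 or more. Among the members, 5 hold at least 1 match, and 4 of these hold 2 or more in 1 window. The windows below are from GRCm38.p6, written 5′ to 3′ on the strand of the gene, with matches in capitals. Uba7 is shown as a window without a match.
Isg15, chr4:156200769-156201068, reverse strand: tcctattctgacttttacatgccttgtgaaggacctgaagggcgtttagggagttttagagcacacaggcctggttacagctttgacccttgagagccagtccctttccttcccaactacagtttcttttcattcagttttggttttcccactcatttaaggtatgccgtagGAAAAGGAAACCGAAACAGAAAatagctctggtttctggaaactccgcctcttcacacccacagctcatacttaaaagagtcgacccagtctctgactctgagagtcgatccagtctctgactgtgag
Ifit1, chr19:34640639-34640938, forward strand: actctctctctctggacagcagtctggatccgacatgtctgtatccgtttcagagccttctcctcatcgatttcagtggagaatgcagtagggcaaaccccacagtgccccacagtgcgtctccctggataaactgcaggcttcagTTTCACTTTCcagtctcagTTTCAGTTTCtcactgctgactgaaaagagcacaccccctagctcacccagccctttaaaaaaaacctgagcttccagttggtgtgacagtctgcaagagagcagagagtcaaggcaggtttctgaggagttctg
Ifit3, chr19:34583279-34583578, forward strand: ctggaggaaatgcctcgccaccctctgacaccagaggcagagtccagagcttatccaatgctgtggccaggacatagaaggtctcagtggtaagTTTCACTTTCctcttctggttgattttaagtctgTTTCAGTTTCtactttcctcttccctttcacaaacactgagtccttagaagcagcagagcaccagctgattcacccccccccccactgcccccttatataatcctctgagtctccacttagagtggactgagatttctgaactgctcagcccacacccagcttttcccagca
Ifit3b, chr19:34607707-34608006, forward strand: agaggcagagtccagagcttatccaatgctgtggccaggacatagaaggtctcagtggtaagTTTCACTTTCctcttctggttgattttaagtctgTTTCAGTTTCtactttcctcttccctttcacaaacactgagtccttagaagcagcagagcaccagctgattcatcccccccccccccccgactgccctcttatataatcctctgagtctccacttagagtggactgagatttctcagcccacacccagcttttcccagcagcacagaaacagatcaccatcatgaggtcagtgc
Ifit1bl1, chr19:34601919-34602218, reverse strand: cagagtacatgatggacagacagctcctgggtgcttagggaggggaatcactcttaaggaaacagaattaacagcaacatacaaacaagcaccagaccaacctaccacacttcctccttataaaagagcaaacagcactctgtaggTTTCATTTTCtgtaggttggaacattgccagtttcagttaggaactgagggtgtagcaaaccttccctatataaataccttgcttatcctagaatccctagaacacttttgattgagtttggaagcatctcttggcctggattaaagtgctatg
Uba7, chr9:107975317-107975616, forward strand: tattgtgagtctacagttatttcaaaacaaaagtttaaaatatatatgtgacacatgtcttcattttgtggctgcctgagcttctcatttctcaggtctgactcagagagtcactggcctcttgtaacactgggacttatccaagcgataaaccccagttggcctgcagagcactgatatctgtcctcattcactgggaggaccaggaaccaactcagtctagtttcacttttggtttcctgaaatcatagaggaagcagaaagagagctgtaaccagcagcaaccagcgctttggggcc

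In the Isg15 window 3 matches overlap one another between 78 and 57 bases before the start site, on the strand of the gene. They form 2 copies of the longer run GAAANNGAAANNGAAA, which 38 of all 32851 windows hold (0.116%). The matches of the Ifit genes all read on the opposite strand, so the capitals show the reverse complement of the core: those of Ifit1 begin 104 and 85 bases before its start, those of Ifit3 156 and 122 bases, and those of Ifit3b 188 and 154 bases. The Ifit3 and Ifit3b windows are 94.5% identical over 274 aligned positions. Ifit1bl1 has 1 match in each of its 2 windows. None of the windows of Ifit2, Uba7, Ube2l6 and Herc6 holds these letters. A match is a description of the letters and not a measured binding site, and its absence from this window says nothing of sites elsewhere.

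All 5 Ifit effectors rose in the LPS+PA libraries, by 27.0 to 74.8 times in mean FPKM. Ifit3, which in human binds and stabilises IFIT1, was the most abundant member in both groups, and Ifit1bl1, the Ifit1b-like gene of the cluster, was the least abundant member in controls. All 10 members rose and none fell in the test described below, beside 22.2% of all tested genes that rose and 32.9% that fell. Their largest change was that of Ifit1bl1, the 14th largest of 11364 log2 fold changes, and the 5 Ifit genes held ranks 14 to 28. Ifit1bl1 passed the filter only through the treated group. Its log2 fold change depends on the value added before the log (5.30 with 1 FPKM added, 6.17 with 0.1).

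Ifit1, the cap sensor, measured 14.0, 10.9 and 11.3 FPKM in controls 1 to 3 and 345, 314 and 316 FPKM in LPS+PA 1 to 3. Ifit2, which binds AU-rich double-stranded RNA, measured 19.6, 16.7 and 18.3 FPKM in controls and 676, 595 and 549 FPKM in treated libraries. Ifit3 measured 30.3, 24.7 and 31.5 FPKM in controls and 962, 834 and 803 FPKM in treated libraries. The lowest treated library of each of these genes was far above its highest control, and LPS+PA 1 was the highest library for all 3. With each library's trend on GC content and length removed, LPS+PA 1 was the lowest treated library for Ifit1 (300, 305 and 312 FPKM). It stayed the highest for Ifit2 (610, 585 and 550) and Ifit3 (884, 815 and 798). Ifit3b, a near copy of Ifit3, measured 6.47, 5.46 and 8.53 FPKM in controls and 283, 251 and 231 FPKM in treated libraries. Ifit1bl1 measured 0.658, 0.956 and 1.55 FPKM in controls and 82.5, 81.9 and 72.0 FPKM in treated libraries. Again no libraries overlapped between the groups, and the controls of Ifit1bl1 differed more among themselves, relative to their mean, than those of any other member.

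**Figure D1:**
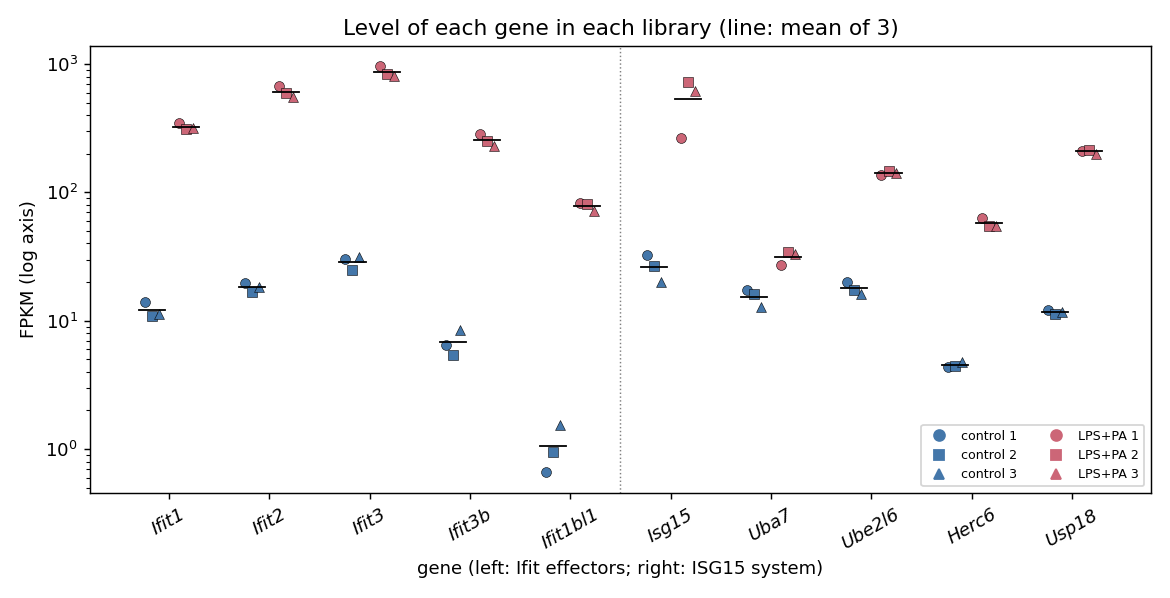
FPKM (log axis) of the 10 members in each of the 6 libraries, Ifit effectors on the left and the ISG15 system on the right, with 1 point per library and the group mean as a bar. Treated libraries lie above controls for every member, by the least for Uba7, and Isg15 in LPS+PA 1 (265 FPKM) lies below the other treated libraries (719 and 622).

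The groups were compared with limma on log2(FPKM + 1), with Benjamini-Hochberg adjustment over all 11364 tested genes. A gene is called when its adjusted p is under 0.05. The added 1 FPKM makes fold changes of low genes smaller than their ratio of means. The log2 fold change of Ifit1 was 4.65 (SE 0.108, adjusted p = 1.06e-06), and that of Ifit2 was 4.98 (SE 0.105, adjusted p = 1.02e-06). That of Ifit3 was 4.86 (SE 0.121, adjusted p = 1.21e-06). The 95% confidence intervals of Ifit1, Ifit2 and Ifit3 overlapped one another. Ifit3b had a log2 fold change of 5.05 (SE 0.157, adjusted p = 3.03e-06) and Ifit1bl1 one of 5.30 (SE 0.163, adjusted p = 2.92e-06). The value of Ifit1bl1 moved between 5.03 and 6.17 over the alternative settings, the widest span among the Ifit genes, and stayed called in each of them.

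Read assignment bears on 2 of these genes. Of the 150-base stretches of the annotated Ifit3 transcripts, 18.5% also occur in those of Ifit3b, and 16.0% of the Ifit3b stretches occur in Ifit3, so how a read from these stretches was shared between the pair is uncertain. The mean FPKM of the pair was 28.8 and 6.82 in controls and 866 and 255 in treated libraries, and both rose. Ifit1 shares 1.24% of its stretches with Ifit1bl2, and Ifit2 and Ifit1bl1 share none with another gene.

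The ISG15 system rose as a whole chain, with the modifier and its protease rising most and the activating enzyme least. Isg15 rose 20.3 times in mean FPKM, Usp18 17.9 times, Herc6 12.7 times, Ube2l6 7.90 times and Uba7 2.04 times. Isg15 measured 32.5, 26.7 and 19.98 FPKM in controls and 265, 719 and 622 FPKM in treated libraries. LPS+PA 1 held well under the level of the other treated libraries but lay above every control. The log2 fold change of Isg15 was 4.19 (SE 0.388, adjusted p = 0.000196), with the widest interval of all members (3.26 to 5.12).

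The cause of the low value of Isg15 in LPS+PA 1 was not tested. Isg15 has a short annotated transcript, of 756 bases against a median of 1244 for tested genes, and a GC content of 52.8% against 50.0%, and LPS+PA 1 was low in GC-rich transcripts and, more weakly, in short ones (Spearman with length 0.23) compared with its group mates. Removing each library's trend of expression on GC content and length left Isg15 at 294 FPKM in LPS+PA 1, 729 in LPS+PA 2 and 643 in LPS+PA 3, so LPS+PA 1 stayed low. When LPS+PA 1 was left out, the log2 fold change of Isg15 was 4.64 (limma, adjusted p = 0.000102).

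Uba7, the E1 that activates ISG15, measured 17.3, 16.2 and 12.8 FPKM in controls and 27.0, 34.0 and 33.2 FPKM in treated libraries. The groups did not overlap, and the 2 lowest libraries within their groups were control 3 and LPS+PA 1, the pair that stood apart by GC content. The log2 fold change of Uba7 was 0.98 (SE 0.141, adjusted p = 0.00143), rank 791 of 11364. Uba7 has the highest GC content of the members, 55.0%. With the GC and length trend removed its controls measured 13.9, 12.7 and 13.03 FPKM and its treated libraries 33.9, 37.9 and 36.5, and its log2 fold change became 1.38 (limma, adjusted p = 9.49e-06).

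**Figure D2:**
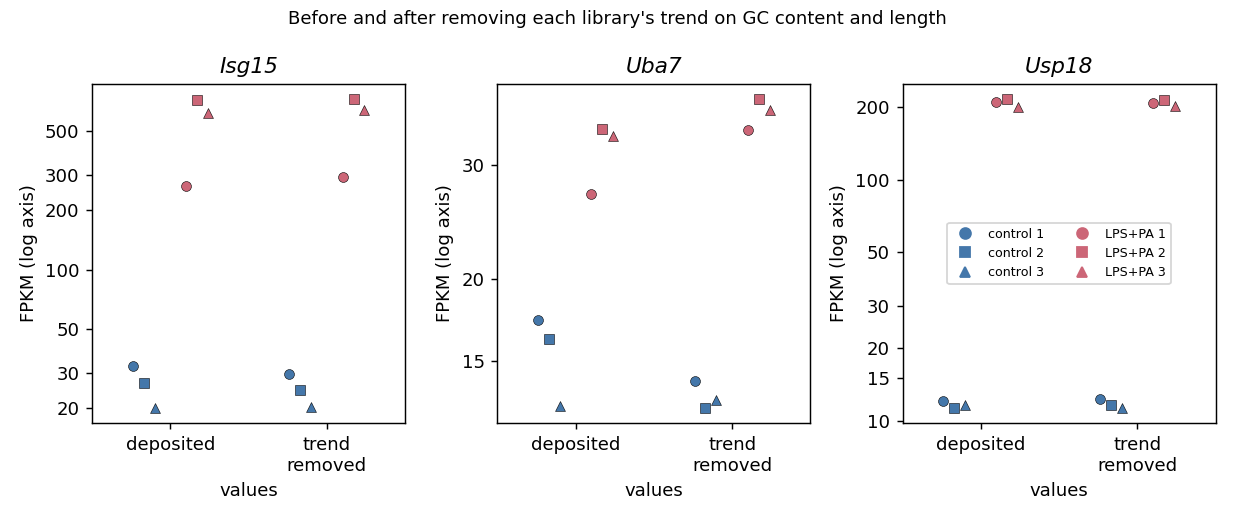
FPKM (log axis) of Isg15, Uba7 and Usp18 in each library, as deposited and after each library's trend on GC content and transcript length was removed. The treated libraries of Uba7 draw together (27.0 to 34.0 FPKM before, 33.9 to 37.9 after), Isg15 in LPS+PA 1 stays low (265 and 294), and Usp18 hardly moves.

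Ube2l6, the E2 of the chain, measured 19.996, 17.5 and 16.3 FPKM in controls and 136, 147 and 142 FPKM in treated libraries. Herc6, the mouse E3, measured 4.33, 4.47 and 4.74 FPKM in controls and 63.6, 54.6 and 54.3 FPKM in treated libraries. Usp18, which removes ISG15 and also restrains signalling at the type I interferon receptor, measured 12.0, 11.3 and 11.6 FPKM in controls and 211, 216 and 200.04 FPKM in treated libraries. The groups of these genes were tight and did not overlap. The log2 fold change was 2.92 for Ube2l6 (SE 0.0930, adjusted p = 3.20e-06), 3.41 for Herc6 (SE 0.0898, adjusted p = 1.55e-06) and 4.05 for Usp18 (SE 0.0697, adjusted p = 1.02e-06). Usp18 had the smallest standard error of all members and Isg15 the largest. Of the 150-base stretches of Herc6 transcripts 8.69% also occur in those of the annotated gene Gm45193, which was at most 0.126 FPKM in any library. Uba7 shares 1.00% with Gm20661, which was at most 0.406 FPKM, and Isg15, Ube2l6 and Usp18 share none.

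With all libraries, the fitted changes of all 5 Ifit effectors were above those of the ISG15 system, though the wide interval of Isg15 overlapped each of theirs. This order rested on LPS+PA 1: without that library Isg15 (4.64) was above Ifit1 (4.61). The median log2 fold change was 4.98 for the 5 Ifit genes (range 4.65 to 5.30) and 3.41 for the 5 genes of the ISG15 system (range 0.98 to 4.19), beside -0.11 for all tested genes. That background median moved to 0.01 with quantile normalization and to 0.05 with median scaling, and all 10 members stayed called under both. Of the 10 members, 9 had a log2 fold change of at least 1, beside 6.65% of tested genes called higher at that size, and 8 had one of at least 3, beside 0.889%. All 3 treated libraries were above all 3 controls for the 10 members, beside 26.3% of tested genes, and for 36.9% of tested genes all treated libraries were below. In order of log2 fold change, each confidence interval from Ifit1bl1 through Ifit3b, Ifit2, Ifit3, Ifit1 and Isg15 to Usp18 overlapped the next. From Usp18 on, through Herc6 and Ube2l6 to Uba7, no interval overlapped the next. Ifit1 (4.39 to 4.91) and Usp18 (3.88 to 4.22), on either side of Isg15, did not overlap each other.

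**Figure D3:**
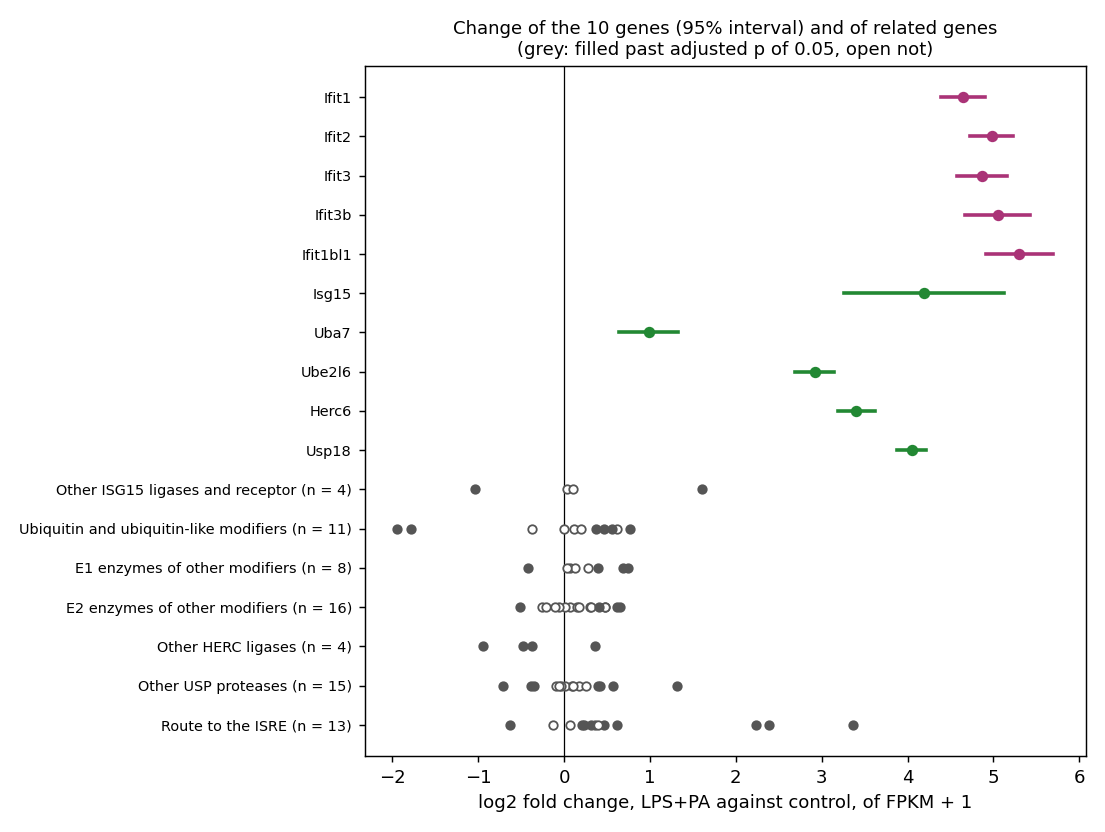
Log2 fold change of each member on the log2(FPKM + 1) scale, LPS+PA against control (3 libraries each), with 95% confidence intervals from limma. The Ifit genes lie between 4.65 and 5.30, and the ISG15 system spreads from 0.98 for Uba7 to 4.19 for Isg15.

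The order of the levels also changed between the groups. In controls, mean FPKM ran from Ifit3 (28.8) and Isg15 (26.4) over Ifit2 (18.2), Ube2l6 (17.9), Uba7 (15.4), Ifit1 (12.0) and Usp18 (11.7) to Ifit3b (6.82), Herc6 (4.51) and Ifit1bl1 (1.05). The libraries of Ifit3 overlapped those of Isg15, and from Ifit2 to Usp18 each gene overlapped the next. In treated libraries it ran from Ifit3 (866) over Ifit2 (607), Isg15 (535), Ifit1 (325), Ifit3b (255), Usp18 (209), Ube2l6 (141), Ifit1bl1 (78.8) and Herc6 (57.5) to Uba7 (31.4). There the libraries of Isg15 overlapped those of Ifit2 and of Ifit1, and no other neighbours overlapped. Uba7 went from the fifth place to the last. Summed over their genes, the Ifit effectors went from 71.0, 58.7 and 71.2 FPKM in controls to 2349, 2076 and 1971 FPKM, and the ISG15 system from 86.2, 76.1 and 65.4 FPKM to 702, 1169.7 and 1051 FPKM. The Ifit sum was below the ISG15 sum in controls 1 and 2 and above it in control 3 and in every treated library.

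Ratios within a library compare members without the scaling between libraries. An exact two-sided permutation test of the log2 ratios, 3 libraries against 3, cannot go below p = 0.1, and 8 ratios were tested, for which the lowest value adjusted over the 8 was 0.16. None of them can therefore pass 0.05, and the ratios are given as values. Uba7 was 53.3%, 60.7% and 63.9% of the Isg15 level in controls and 10.2%, 4.73% and 5.35% in treated libraries (exact permutation p = 0.1, 0.16 adjusted). Ube2l6 was 61.5%, 65.5% and 81.4% of Isg15 in controls and 51.5%, 20.4% and 22.8% in treated libraries (exact permutation p = 0.1). The groups did not overlap for either ratio, and LPS+PA 1, where Isg15 was low, was the treated library nearest to the controls in both. Herc6 was 13.3%, 16.8% and 23.7% of Isg15 in controls and 24.0%, 7.59% and 8.74% in treated libraries, which overlapped (exact permutation p = 0.4). Usp18 was 37.0%, 42.5% and 58.2% of Isg15 in controls and 79.5%, 30.0% and 32.2% in treated libraries, which also overlapped (exact permutation p = 0.9). The mean log2 difference of the Usp18 ratio was -0.09 with all libraries and -0.54 without LPS+PA 1, and it was above 0 without control 3 (0.10), without LPS+PA 2 (0.17) or without LPS+PA 3 (0.12).

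Among the Ifit genes, Ifit2 was 140%, 153% and 163% of Ifit1 in controls and 196%, 189% and 174% in treated libraries, without overlap (exact permutation p = 0.1). Ifit3 was 217%, 226% and 279% of Ifit1 in controls and 279%, 265% and 254% in treated libraries, with overlap (exact permutation p = 0.4). These genes thus kept their order of level in every library. Ifit3b was 21.3%, 22.1% and 27.1% of Ifit3 in controls and 29.5%, 30.1% and 28.8% in treated libraries, without overlap (exact permutation p = 0.1), for a pair whose shared stretches make the split of reads uncertain. Ifit1bl1 was 4.71%, 8.77% and 13.7% of Ifit1 in controls and 23.9%, 26.0% and 22.8% in treated libraries, without overlap (exact permutation p = 0.1). Its log2 difference, with no FPKM added, was 1.55, the largest of the ratios among Ifit genes. Of all 8 ratios only that of Uba7 to Isg15, -3.22, was larger in size. That place among the 8 depends on the value added, since the controls of Ifit1bl1 were low (0.658, 0.956 and 1.55 FPKM). With 1 FPKM added, the log2 fold changes were 5.30 for Ifit1bl1 and 4.65 for Ifit1. They were 2.92 for Ube2l6 and 4.19 for Isg15, which lie further apart.

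**Figure D4:**
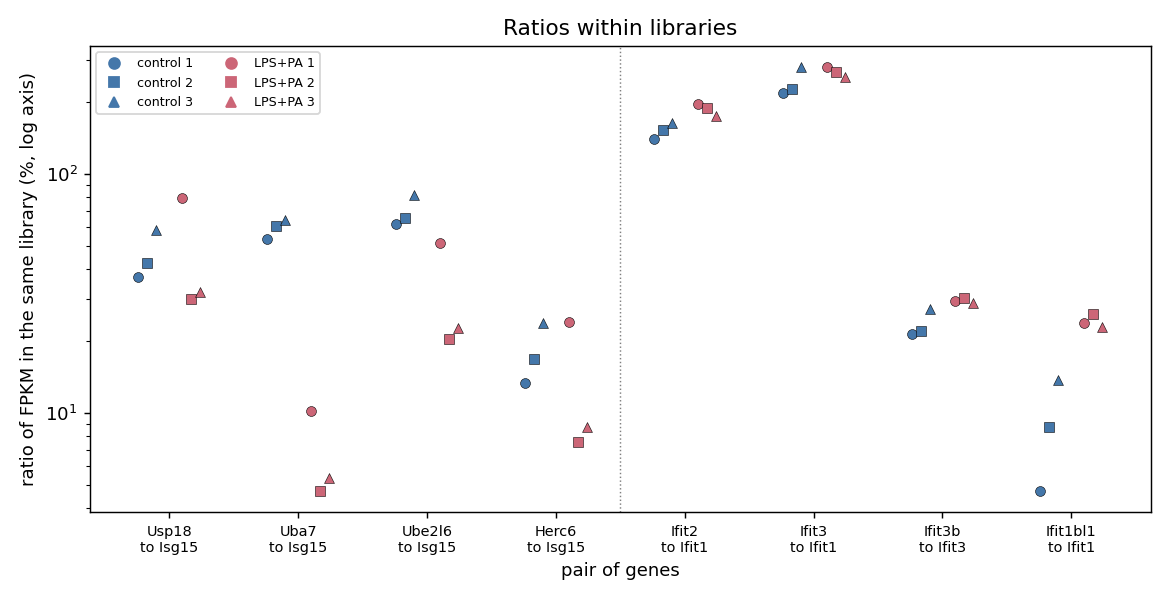
Ratio of the FPKM of 2 members within the same library (%, log axis), 1 point per library, with ratios to Isg15 on the left and ratios among Ifit genes on the right. Uba7 to Isg15 goes from 53.3% to 63.9% in controls to 4.73% to 10.2% in treated libraries, and the groups overlap for Usp18 to Isg15, Herc6 to Isg15 and Ifit3 to Ifit1.

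The 5 Ifit members lie in a cluster on chromosome 19 (mm10), all annotated as protein-coding genes. Ifit2 spans chr19:34550694-34576419, Ifit3 chr19:34583531-34588731, Ifit3b chr19:34607970-34613401 and Ifit1 chr19:34640871-34650009, all on the forward strand, and Ifit1bl1 spans chr19:34592891-34601956 on the reverse strand. The genes of the ISG15 system are spread over the genome: Isg15 lies at chr4:156199424-156200818 on the reverse strand, and on forward strands Uba7 lies at chr9:107975505-107984060, Ube2l6 at chr2:84798828-84810335, Herc6 at chr6:57581000-57664632 and Usp18 at chr6:121245906-121270917. Inside the Ifit cluster lies Ifit1bl2, which is not a member. It shares its promoter region with Ifit1: the RefSeq start sites lie 146 bases apart on opposite strands, the windows share 245 bases, and both ISRE core matches are the same 2 positions. Ifit1bl2 measured 0.0576, 0.176 and 0.147 FPKM in controls and 1.22, 1.01 and 1.22 FPKM in treated libraries, against 314 to 345 FPKM for Ifit1. It passed the filter only through the treated group, and its log2 fold change of 0.93 was called (limma, adjusted p = 0.000188). That value is held down by the added 1 FPKM. The mean FPKM of Ifit1bl2 rose 9.04 times, and its log2 fold change moved between 0.79 and 2.49 over the alternative settings.

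Of the 9 non-member genes chosen in and beside the cluster, 7 were tested, of which 3 rose, 3 fell and 1 was not called, with a median log2 fold change of 0.07. Of all tested genes 22.2% rose and 32.9% fell. Fas, a death receptor, rose from 8.20 ± 1.06 to 17.0 ± 1.603 FPKM (SD, n = 3 each; limma, log2 fold change 0.97, adjusted p = 0.000603). Acta2, smooth muscle actin, fell from 217 ± 14.1 to 16.5 ± 1.67 FPKM (SD, n = 3 each; limma, log2 fold change -3.64, adjusted p = 1.73e-06). Kif20b, a mitotic kinesin, fell by 0.91 on the log2 scale (limma, adjusted p = 0.000640). Kif20b passed the filter only through the control group, with 1.61, 1.93 and 2.29 FPKM in controls and 0.662, 0.487 and 0.549 FPKM in treated libraries. Its log2 fold change moved between -1.61 and -0.68 over the alternative settings. The counts were 2 risen and 2 fallen when control 2, control 3, LPS+PA 2 or LPS+PA 3 was left out. Of 4 tested stromal markers 3 also fell and 1, Dcn, rose from 4.91 to 23.3 FPKM (limma, log2 fold change 2.05, adjusted p = 0.000204), and their part in the change of Acta2 was not tested.

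**Figure D5:**
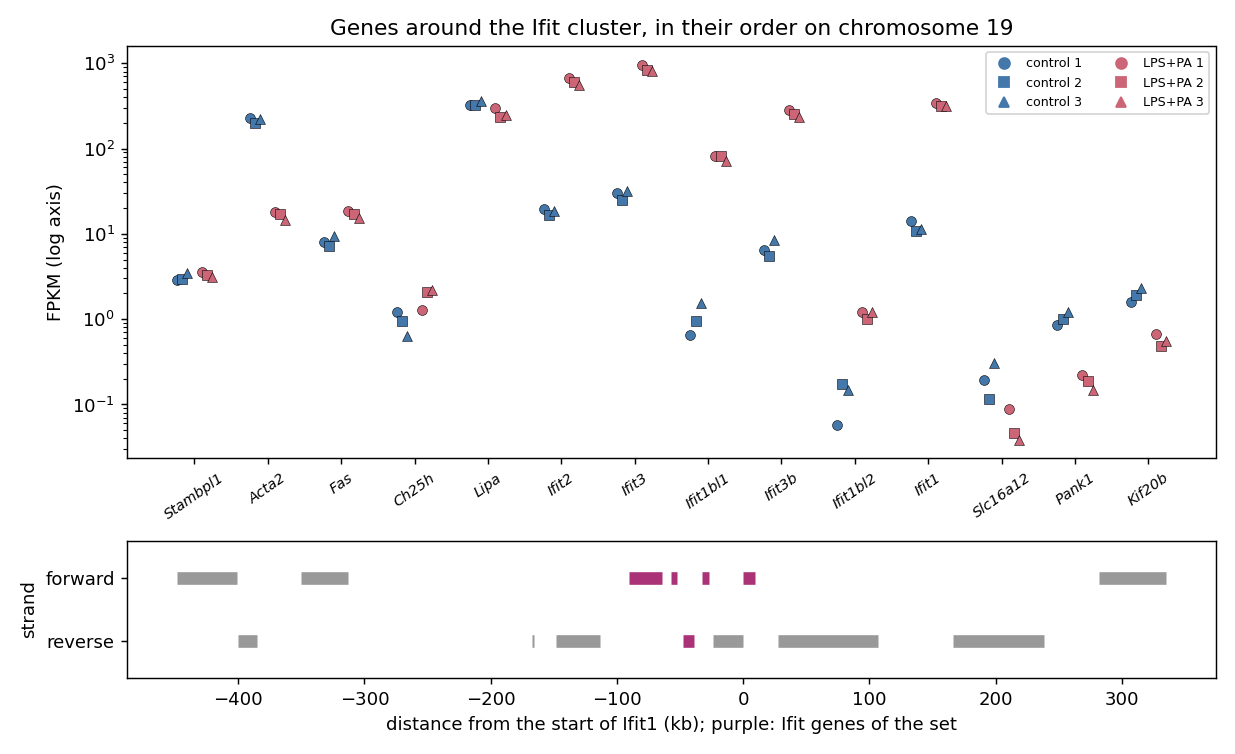
Top, FPKM (log axis) in each library of the Ifit genes and their neighbours, in their order on chromosome 19. Bottom, their positions by strand, as distance from the start of Ifit1 in kilobases; members are purple. The members rise together (Ifit3 to 803 to 962 FPKM), while neighbours such as Acta2 (217 to 16.5 FPKM) fall.

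Genes related to the members had smaller median changes, and moved in both directions, as did tested genes in general (22.2% rose and 32.9% fell). The counts in this list and those that follow stand beside these shares. Other ligases and the receptor of ISG15 were 4 tested genes, of which 1 rose, 1 fell and 2 were not called. Trim25, which also acts as an ISG15 ligase, rose from 40.2 ± 1.54 to 125 ± 11.1 FPKM (SD, n = 3 each; limma, log2 fold change 1.604, adjusted p = 2.24e-05). Arih1 was 22.2 ± 2.82 and 22.8 ± 3.57 FPKM (limma, adjusted p = 0.850). Of the LFA-1 chains that form the receptor of secreted ISG15, Itgb2 fell from 345 ± 64.6 to 167 ± 27.4 FPKM (limma, adjusted p = 0.00339), and Itgal was 40.7 ± 4.29 and 44.0 ± 5.74 FPKM (limma, log2 fold change 0.10, adjusted p = 0.490). With the GC and length trend removed Itgal was called higher (0.58, limma, adjusted p = 0.00228). Trim25 kept its call under each of the 17 alternatives.

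The genes of ubiquitin and the other ubiquitin-like modifiers, and their enzymes, moved in both directions, beside 22.2% of all tested genes that rose and 32.9% that fell. Of 8 other E1 genes 3 rose and 1 fell, with a median log2 fold change of 0.21: Uba1, the main E1 of ubiquitin, rose from 74.3 ± 1.95 to 125 ± 7.32 FPKM (limma, log2 fold change 0.75, adjusted p = 0.000291), and Atg7 fell by 0.42 on the log2 scale, a call that ended with median scaling. Of 16 other E2 genes 5 rose and 1 fell (median 0.16). The largest of these changes were those of Ube2k (log2 fold change 0.65) and Ube2m (0.62), against 2.92 for Ube2l6. With the GC and length trend removed they were 0.35 for Ube2k and 1.15 for Ube2m, against 3.07 for Ube2l6, and 6 E2 genes rose and 2 fell. The number of E2 genes that rose was 3 without control 1, control 2 or LPS+PA 1, and 2 fell without LPS+PA 1. Ube2l3, the close relative of Ube2l6, went from 44.2 ± 1.86 to 55.0 ± 4.72 FPKM (limma, log2 fold change 0.30, adjusted p = 0.0239), but was not called without control 1 (0.31, adjusted p = 0.06999), control 2 (0.27, adjusted p = 0.0833) or LPS+PA 1 (0.24, adjusted p = 0.0521). Of 11 genes of ubiquitin and its relatives 4 rose and 2 fell (median 0.20). Fau had a log2 fold change of -1.94 (limma, adjusted p = 0.0242), which was not called without control 1 (-1.72), control 2 (-1.54), LPS+PA 1 (-1.64) or LPS+PA 2 (-2.02), so 1 of these genes fell in those fits. Without control 3, 3 of them fell.

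Herc6 was the only one of the 5 HERC genes tested with a log2 fold change above 1. Of the other 4, Herc3 had a log2 fold change of 0.36 and was called (limma, adjusted p = 0.0253), but not without control 1 (0.34), control 2 (0.34), LPS+PA 1 (0.28) or LPS+PA 3 (0.39). Herc1 fell by 0.95 and Herc2 by 0.48 on the log2 scale, and 3 of the 4 fell in all, or 2 without LPS+PA 2 or LPS+PA 3. Of 15 other USP proteases tested 4 rose and 3 fell (median 0.10), beside 22.2% and 32.9% of all tested genes. Usp25 rose most, from 20.1 ± 1.84 to 51.7 ± 3.51 FPKM (limma, log2 fold change 1.32, adjusted p = 6.50e-05), against 4.05 for Usp18, and Usp16 rose by 0.57 on the log2 scale. Usp5 had a log2 fold change of -0.71 (limma, adjusted p = 0.0313) and was not called without control 1 (-0.58), control 2 (-0.59), LPS+PA 1 (-0.62), LPS+PA 2 (-0.72) or LPS+PA 3 (-0.79). Usp48 had a log2 fold change of -0.38 (limma, adjusted p = 0.0175) and was not called without control 1 (-0.39), LPS+PA 2 (-0.37) or LPS+PA 3 (-0.32). In all, 1 USP gene fell without control 1, LPS+PA 2 or LPS+PA 3, and 2 without control 2 or LPS+PA 1. The calls of Herc2, Usp5 and Usp48 also ended with median scaling.

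Of 14 genes on the route from Tlr4 to the ISRE, 13 were tested, of which 8 rose and 1 fell, with a median log2 fold change of 0.36. Among all tested genes 22.2% rose and 32.9% fell. The number that rose was 4 without control 1, control 2 or LPS+PA 2, and 5 without LPS+PA 1 or LPS+PA 3, and 2 fell without control 3. With the GC and length trend removed 10 rose and none fell. Without control 3 and LPS+PA 1 together, a choice made after seeing the data, 10 rose and 2 fell. Irf7, the interferon-induced regulator of the same element, rose from 18.2 ± 7.25 to 186 ± 24.0 FPKM (SD, n = 3 each; limma, log2 fold change 3.36, adjusted p = 0.000167). Stat2, which binds the ISRE in a complex with Irf9, rose from 20.1 ± 1.51 to 109 ± 2.75 FPKM (SD, n = 3 each; limma, log2 fold change 2.38, adjusted p = 3.53e-06). Irf9 itself was 11.0 ± 2.07 and 14.6 ± 1.76 FPKM and was not called (limma, adjusted p = 0.0690), though it was called with the GC and length trend removed (0.45, limma, adjusted p = 0.0397). Irf3 had a log2 fold change of -0.64 (limma, adjusted p = 0.00817), which ended with the trend removed (-0.10, limma, adjusted p = 0.526). Ifnb1, which encodes interferon beta, was too low to be tested. It was listed at 0, 0 and 0.0542 FPKM in controls and at 0.634, 0.360 and 0.447 FPKM in treated libraries, and the files hold no measure of the protein.

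Lists tied to what Ifit proteins act on had medians near 0, and their counts stand beside 22.2% of all tested genes that rose and 32.9% that fell. Of 5 genes of mRNA cap methylation 2 rose and none fell (median log2 fold change 0.06). Cmtr1, which adds the cap mark that lets RNA escape Ifit1, rose from 11.1 ± 0.315 to 18.99 ± 1.49 FPKM (SD, n = 3 each; limma, log2 fold change 0.72, adjusted p = 0.000514). Cmtr2, which marks the following nucleotide, was 2.56 ± 0.301 and 2.70 ± 0.219 FPKM (limma, adjusted p = 0.623). Rnmt had a log2 fold change of 0.37 (limma, adjusted p = 0.0157), which was not called without control 1 (0.36) or control 2 (0.32), so 1 of the 5 rose in those fits. Another fell without control 2, and with the GC and length trend removed 1 rose and 2 fell. Of 14 genes for subunits of eIF3, the translation factor that Ifit1 and Ifit2 bind, 4 rose and 5 fell (median -0.17). Eif3j1 rose by 0.58, and Eif3f and Eif3h fell by 0.73 and 0.53, on the log2 scale. Eif3j2 had a log2 fold change of 0.40 (limma, adjusted p = 0.0485), which was not called without control 1 (0.40), control 2 (0.33), LPS+PA 1 (0.32) or LPS+PA 3 (0.35). The number that fell was 3 without LPS+PA 3.

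The genes whose log2(FPKM + 1) followed the mean of the members most closely over the 6 libraries were C3, Mx2, Tarm1, Parp12 and Cd38, with Pearson r between 0.9996 and 0.9999. The libraries fall into 2 groups, so such a correlation mostly follows the difference between them, and 513 tested genes reached r of at least 0.99. C3, the central complement component, went from a mean of 74.2 to 672 FPKM and Mx2, an interferon-induced GTPase, from 1.35 to 24.3 FPKM. The log2 fold changes of the 5 genes lay between 2.03 for Parp12 and 4.44 for Tarm1, all under that of Ifit1.

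The authors' deposited table marks all 10 members as significant and higher. In the authors' deposited table the fold change runs from 2.04 for Uba7 to 74.8 for Ifit1bl1, and the largest q-value of a member is 6.32e-12, for Uba7.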

How the data were processed

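Sample titles gave each library its group and number. Poly(A) RNA was fragmented, copied with dUTP strand marking, amplified by PCR and sequenced as read pairs, per the labels' protocols, and PCR can favour fragments by GC content. The authors deposited FPKM per gene and library, with replicates not pooled. Per the file headers, the authors also deposited a fold change (linear and log2) with p-values and q-values. Their fold change equals the ratio of mean FPKM in all 23889 rows with both means above 0 (within 0.1 percent), and it is unknown here which tool made their p-values. Tools in the submitters' processing notes are HISAT2 2.2.1, StringTie 2.1.6 and cutadapt 1.9, besides edgeR and DESeq2, and the build is mm10. For the annotation and the use of strand in counting nothing is stated, and 29871 of 29957 gene IDs matched the GENCODE M21 annotation.

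From these values log2(FPKM + 1) was tested with limma 3.58.1 (R 4.3.3) with a variance trend, after a filter of at least 1 FPKM in 3 libraries. On simulated data of 11364 genes with 3 libraries a group, the fit recovered 87% of genes changed by 1 on the log2 scale and 89% of those changed by 2. The simulated noise was independent between genes. The real libraries hold GC trends shared across genes, so these rates may not hold for them. Ratios were tested with Python 3.11.15 and scipy 1.17.1. GC and length trends were removed per library with natural splines (5 degrees of freedom). Depth was estimated from the steps of FPKM values, within 0.5 percent, and covers counting error only. No 2 libraries held identical values. The alternatives were other pseudocounts, filters, scalings, trend removal, a replicate block, sets of libraries and leaving out each library. The members and the 17 gene lists were chosen with earlier results of these data known. The text names the members, the 2 called genes with the largest positive and negative changes in each list of related genes, genes not called whose role is described and the 5 most correlated genes; marker lists are given as counts and sums. Some genes that this rule names are not reported here. Ube2l3, Adgre1, Dcn, Pacsin1, Ms4a1, Cd3g, Ly6g and Ngp were named after their values were seen.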

Additional observations from a re-analysis of the deposited data

How the results depend on the processing

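All 10 members were higher and called (limma, adjusted p under 0.05) under each of 17 alternatives, 170 values in all, with a highest adjusted p of 0.0105 for Uba7 in the fit with the replicate number as a block. The log2 fold change ranged from 0.86 to 1.38 for Uba7 and from 3.92 to 4.64 for Isg15. The median of the ISG15 system, 3.41, was 3.64 with a pseudocount of 0.1, 3.59 with median scaling, 3.15 with the GC and length trend removed, 3.37 with a term for the set of libraries, 3.36 in control 1, control 2 and LPS+PA 3 alone, 3.38 in control 3, LPS+PA 1 and LPS+PA 2 alone, and 3.36 without control 3 and LPS+PA 1, a choice made after seeing the data. It was 3.33 to 3.44 when 1 library was left out. The median of the Ifit genes, 4.98, was 5.18 with median scaling and 4.81 in control 3, LPS+PA 1 and LPS+PA 2 alone, where 1197 genes were called higher and 1797 lower, against 2523 and 3736 with all libraries. Both library sets used alone have 1 library in a group (control 3 or LPS+PA 3), which was assumed to vary like the other group. The labels name neither set. LPS+PA 2 (Spearman with GC content 0.39) differed in GC trend from control 3 (-0.68) and LPS+PA 1 (-0.61), with which it was placed. For the other moved values the cause was not tested. The calls of Irf3, Ube2k, Ube2h, Usp16, Eif3j1 and Eif3h also ended in control 3, LPS+PA 1 and LPS+PA 2 alone. Scaling moved the split of calls to 3014 higher and 2922 lower with quantile normalization and 3349 and 2723 with median scaling. The log2 difference of the Usp18 to Isg15 ratio, -0.09, ranged from -0.54 to 0.17 when 1 library was left out and changed sign without control 3 (0.10), LPS+PA 2 (0.17) or LPS+PA 3 (0.12). Libraries of the same number did not deviate together (correlations -0.47, 0.09 and -0.59), while control 3 deviated with LPS+PA 1 (0.60). Deviations that cross the numbers in this way can hide a pairing, so these correlations cannot decide whether the numbers pair the libraries. The replicate block gave 1918 genes higher and 2820 lower and changed no member's call. Depth limits what can be said of Ifnb1, which was listed at 0 FPKM in 2 controls.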
